A study of Mus musculus with 24 samples.

Results

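The 9 interferon-stimulated genes Isg15, Ifit1, Ifit3, Oas1a, Oasl2, Irf7, Gbp2, Rsad2 and Usp18 were followed in the distal jejunum of 24 mice. They were taken by gene name from a table of 56691 genes. All 9 were found, and all passed the filter on low counts in each comparison. The 24 poly(A) RNA libraries came from 8 groups of 3 mice: males and females, each wild type or Ptk6-/-, each given regular water (control) or 100 mM succinate in the drinking water for 7 days. Ptk6-/- mice carry a germline knockout of Ptk6, which encodes an intracellular tyrosine kinase, in the C57BL/6 background. Because the knockout is germline, it is not confined to a cell type. The mice were 9 to 11 weeks old at the end, age-matched, and taken from different litters of 1 colony. Succinate is a microbial metabolite that tuft cells sense and that is used to start type 2 immunity in the small intestine.

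Interferons are secreted proteins that warn cells of infection. Type I and type III interferons act through transcription factors that bind a response element in the promoters of their target genes, and interferon-gamma acts through a different element. In the gut, type III interferons act mainly on epithelial cells, and the commensal flora is known to hold a low level of interferon-stimulated genes in the resting mucosa. The 9 genes cover several tasks of this response. Ifit1 and Ifit3 encode proteins that bind viral RNA. Oas1a encodes an enzyme that makes antiviral oligoadenylates, and Oasl2 an oligoadenylate synthetase-like protein. Isg15 encodes a ubiquitin-like modifier, and Usp18 the protease that removes it and that also dampens signalling at the type I receptor. Irf7 is the transcription factor that amplifies type I interferon expression. Gbp2 is a GTPase that responds to interferon-gamma, and Rsad2 encodes the antiviral enzyme viperin.

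Promoters of the genes on which the comparisons turn are shown first, to give the elements through which such genes are known to be switched on. The windows run from 250 bases before to 50 bases after the gene start in RefSeq (build GRCm38.p6) and were found for 8 of the 9 genes. The core of the interferon response element, GAAANNGAAA on either strand, is in capitals. Ifit1 and Oasl2 were chosen for the most negative differences with succinate over all mice, and Isg15 and Oas1a for their differences between genotypes in control females. The windows lie at chr19:34640639-34640938 (plus strand, Ifit1), chr5:114896684-114896983 (plus strand, Oasl2), chr4:156200769-156201068 (minus strand, Isg15) and chr5:120907476-120907775 (minus strand, Oas1a), each written 5′ to 3′ on the strand of the gene.
Ifit1: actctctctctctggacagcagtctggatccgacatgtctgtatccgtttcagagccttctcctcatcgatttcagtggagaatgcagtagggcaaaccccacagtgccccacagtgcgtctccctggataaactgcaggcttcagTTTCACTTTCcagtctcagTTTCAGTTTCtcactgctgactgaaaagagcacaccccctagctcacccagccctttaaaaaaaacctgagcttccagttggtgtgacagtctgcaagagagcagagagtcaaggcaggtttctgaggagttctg
Oasl2: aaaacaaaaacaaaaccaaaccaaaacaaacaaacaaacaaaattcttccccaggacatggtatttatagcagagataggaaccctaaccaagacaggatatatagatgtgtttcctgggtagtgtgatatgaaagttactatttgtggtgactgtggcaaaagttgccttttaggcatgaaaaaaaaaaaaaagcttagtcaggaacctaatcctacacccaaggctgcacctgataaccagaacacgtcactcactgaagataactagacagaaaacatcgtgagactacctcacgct
Isg15: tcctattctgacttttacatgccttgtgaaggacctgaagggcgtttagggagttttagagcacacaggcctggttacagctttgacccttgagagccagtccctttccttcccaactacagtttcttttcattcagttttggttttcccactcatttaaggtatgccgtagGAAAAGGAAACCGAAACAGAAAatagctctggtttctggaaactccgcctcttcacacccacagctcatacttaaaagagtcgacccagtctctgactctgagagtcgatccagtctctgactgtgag
Oas1a: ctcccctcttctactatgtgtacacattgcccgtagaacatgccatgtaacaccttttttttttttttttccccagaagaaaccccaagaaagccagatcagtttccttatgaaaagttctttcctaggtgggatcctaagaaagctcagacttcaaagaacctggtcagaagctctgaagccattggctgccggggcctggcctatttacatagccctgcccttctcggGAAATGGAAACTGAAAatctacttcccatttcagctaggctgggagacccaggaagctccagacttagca

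The core was present in 6 of the 8 windows, against 3.44% of all 32851 promoter windows of the same length. Ifit1 and Ifit3 each held 2 separate matches, which began 104 and 85 bases before the start in Ifit1 and 156 and 122 bases before it in Ifit3. Isg15 held 3 overlapping matches from 78 to 57 bases before its start, Oas1a 2 overlapping matches from 20 to 5 bases before its start, and Gbp2 and Rsad2 1 match each. No match to these letters lay in the windows of Oasl2 and Irf7. The element of interferon-gamma signalling, written TTCNNNGAA (its own reverse complement), was found in 1 of the 8 windows, that of Oas1a, and in 8.3% of all windows.

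**Figure D1:**
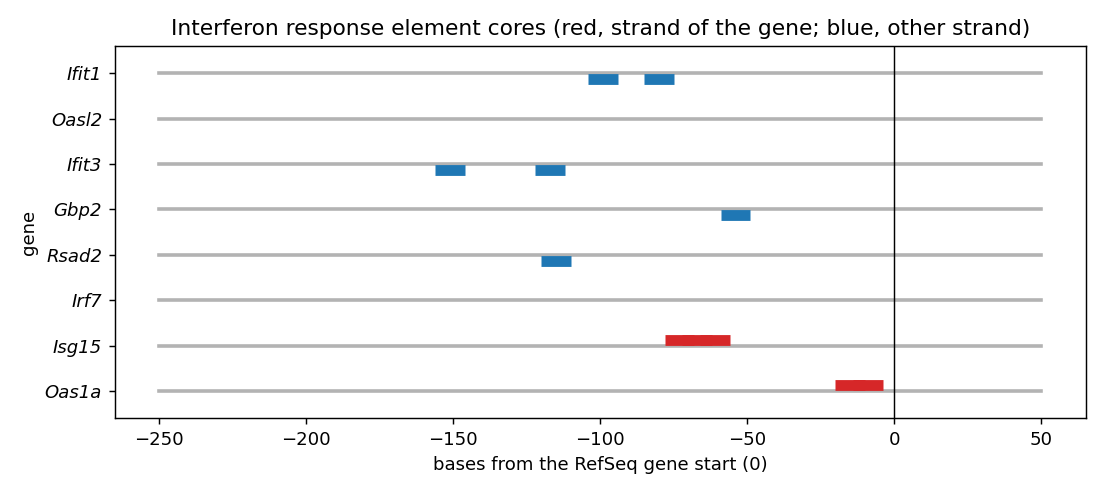
Matches to the interferon response element core in the promoter windows of 8 genes, by distance in bases from the RefSeq gene start, with red bars above a line on the strand of the gene and blue bars below it on the other strand. Ifit1 and Ifit3 have 2 separate matches each, and Oasl2 and Irf7 have none.

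The deposited annotation (GRCm39) placed Ifit3 (chr19:34560931-34566131) and Ifit1 (chr19:34618271-34627409) in 1 cluster, and Oasl2 (chr5:115034997-115050295) and Oas1a (chr5:121034319-121045584) on chromosome 5. Isg15 lay at chr4:156283912-156285253, Irf7 at chr7:140842619-140846394, Gbp2 at chr3:142326363-142343769, Rsad2 at chr12:26492745-26506451 and Usp18 at chr6:121222865-121247876. Values are whole genes, not exons. Ifit1, Ifit3 and Oas1a have related genes (Ifit1bl1, Ifit3b and Oas1g among them). How alike their sequences are was not compared, and whether reads were split between them is uncertain. Irf7 overlaps Phrf1 on the opposite strand, and whether the counting used strand is not given in the sources used here.

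Libraries held 8080321 to 52824743 counts. Ptk6 had 7 to 61 counts in the Ptk6-/- libraries and 284 to 2405 in wild type. Summed markers of enterocytes, the main cell of the jejunal lining, were present in each library (8 of 8 genes, 12888 to 48889 CPM, which are counts per library size after TMM scaling). In the library of male wild type control mouse 1, 51.2% of counts fell on the ribosomal RNA gene Rn18s-rs5, and in that of male Ptk6-/- succinate mouse 1, the smallest, 29.7%. The library labelled female wild type succinate mouse 2 held heart muscle markers at a summed 22168 CPM and Y-linked genes at 74.2 CPM, within the range of the 12 libraries labelled male (33.4 to 90.2) and above the other 11 labelled female (0.0 to 0.971). These genes go against its label, and whether it was mislabelled or mixed with another sample was not tested. It is kept where its label puts it, as the second value of wild type females under succinate, also in the sex comparisons. Some fitted differences are also given without these 3 libraries, and the counts over groups without overlap and over the gene lists include them.

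Levels between genes were compared per length, as FPKM (fragments per kilobase of transcript, scaled to the mapped fragments of a library). Irf7 had the highest median over the 24 libraries (20.9, highest 32.1) and ranked first of the 9 in 18 libraries. Oas1a followed at 14.3 and Isg15 at 11.9, and they ranked first in 5 libraries and 1 library. Gbp2 (8.43), Oasl2 (7.19) and Ifit1 (6.14) formed the middle, with ranges that overlapped one another and those of Oas1a and Isg15. Ifit3 had a median of 3.65 and Usp18 of 1.88, and their ranges overlapped. Rsad2 was lowest in all 24 libraries, with a median of 0.701. No neighbours in this order were separated by their ranges over the libraries, those of Rsad2 and Usp18 included.

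The first question was what succinate does to these genes. Over all 24 mice, with sex and genotype in the model, 7 of the 9 genes had lower values under succinate and 2 (Oas1a and Usp18) higher ones. None passed the test, edgeR's quasi-likelihood test with an adjusted p under 0.05 and a change of at least 2-fold, which called 0.525% of all genes in this comparison. At an unadjusted p under 0.05 there were 5 of 9, 4 lower and 1 higher, against 16.0% of all genes. The median log2 fold change of the 9 was -0.41, and that of all genes tested 0.0058.

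Ifit1 showed the largest difference. Its log2 fold change over all mice was -1.08 ± 0.28 (SE), with an adjusted p of 0.0735 in edgeR's test. DESeq2 gave -1.06 with an adjusted p of 0.0075, and the range over all alternatives was 0.0075 to 0.304. Without male Ptk6-/- succinate mouse 2 the edgeR value was -1.23 (adjusted p 0.0204), without female wild type succinate mouse 3 it was -1.20 (adjusted p 0.0343), and without the 3 libraries named above it was -1.11 (adjusted p 0.124). The call for Ifit1 therefore depended on the test and on which mice were included.

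The mouse by mouse values of Ifit1, in CPM, show where the difference lay. Wild type males had 23.0, 25.2 and 28.5 as controls and 19.5, 18.9 and 9.88 under succinate. Wild type females had 38.3, 32.1 and 19.1 as controls and 6.43, 8.19 and 16.1 under succinate. Ptk6-/- females had 22.6, 26.3 and 27.2 as controls and 9.01, 2.54 and 5.61 under succinate. In these 3 strata every succinate mouse was below every control mouse. Ptk6-/- males had 18.4, 37.2 and 38.4 as controls and 18.6, 38.3 and 26.6 under succinate, so that there the groups overlapped almost fully. In FPKM, which were not TMM scaled, the wild type male groups overlapped too (3.01, 7.57 and 8.39 in controls, 6.75, 5.09 and 2.70 under succinate), the lowest control being the library rich in ribosomal RNA.

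The fitted differences of Ifit1 followed these values. The log2 fold change was -0.68 ± 0.28 in wild type males (edgeR, adjusted p 0.947), -1.53 ± 0.42 in wild type females (0.55), -2.18 ± 0.44 in Ptk6-/- females (0.239) and -0.13 ± 0.34 in Ptk6-/- males (0.893), none of them a call. In Ptk6-/- females the mean CPM was 25.4 ± 2.42 (SD, n = 3) in controls and 5.72 ± 3.23 (SD, n = 3) under succinate, and DESeq2 called the difference (-2.16, adjusted p 9.1e-04). In wild type females the difference was called without succinate mouse 3 (-1.98, adjusted p 0.0422) and was -1.38 without the library labelled succinate mouse 2. In Ptk6-/- males the value was 0.034 without succinate mouse 1, and in wild type males -0.71 without control mouse 1. In wild type males voom with sample quality weights called it (-1.05, adjusted p 0.012), while it was -0.44 without succinate mouse 3 and -0.30 on log2(FPKM + 1) values, neither a call.

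Whether succinate acted differently by sex or genotype was tested directly. The interaction of sex with succinate gave -1.42 ± 0.47 for Ifit1, -0.94 ± 0.31 for Irf7 and -1.67 ± 0.57 for Isg15, the more negative difference being that of females. These 3 of 9 had an unadjusted p under 0.05, against 8.22% of all genes. Their adjusted p values were 0.339, 0.343 and 0.351 (edgeR), and no gene of the table was called (0.0%). Without the 3 libraries named above the values were -1.41 for Ifit1, -0.70 for Irf7 and -1.17 for Isg15, with adjusted p values (edgeR) of 0.52, 0.639 and 0.727. On log2(FPKM + 1) they were -0.93, -0.60 and -1.02. Without the 3 libraries Rsad2 went from -0.14 to -0.85 and Oas1a from -0.20 to 0.35. The interaction of genotype with succinate in males was 0.56 ± 0.47 for Ifit1 (adjusted p 0.993, 0.0% of all genes called), and on log2(FPKM + 1) values it had the opposite sign (-0.38). In females it was -0.61 ± 0.65 (adjusted p 0.903, 0.0% called). Without the 3 libraries the interaction in males went from 0.89 to 0.17 for Isg15 and from 0.71 to -0.060 for Oas1a, and that in females from -1.09 to -0.086 for Rsad2. No difference between strata passed the test for Ifit1.

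**Figure D2:**
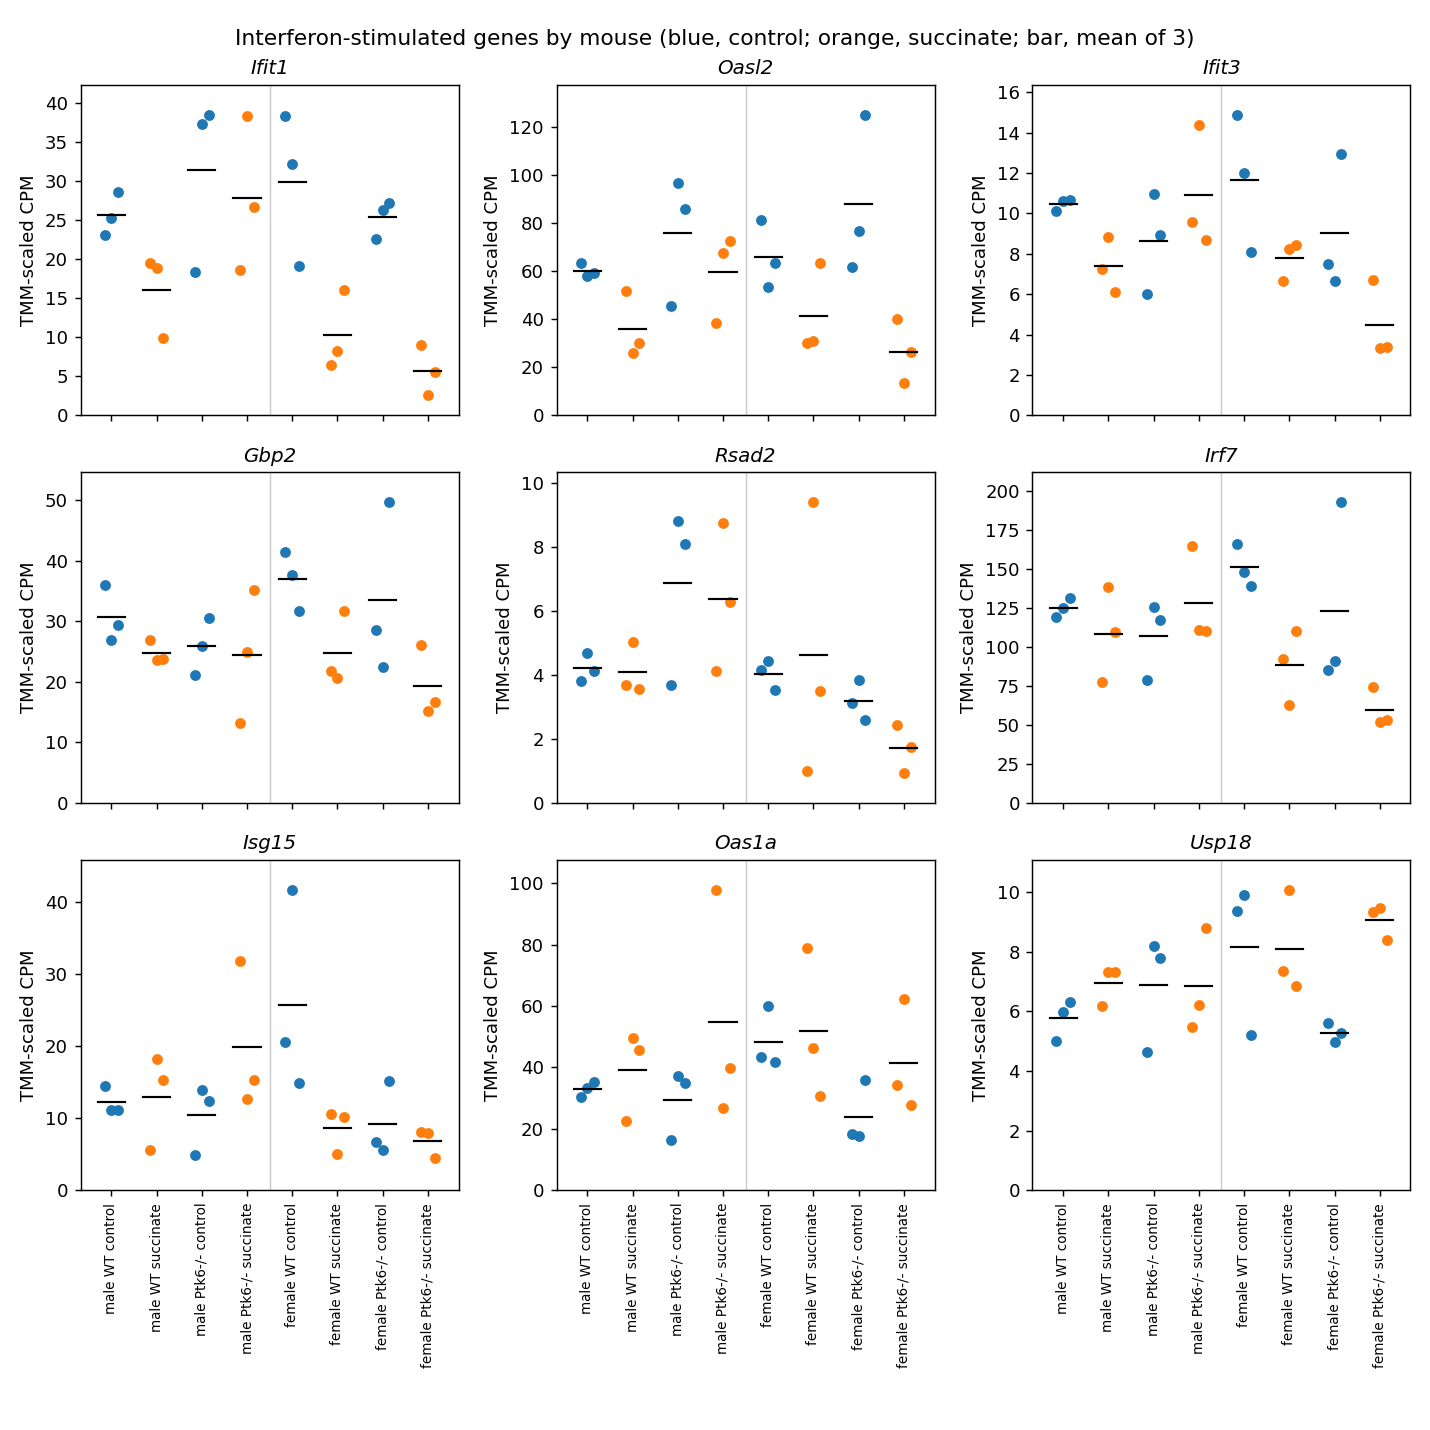
Level of each gene in TMM-scaled CPM for each of the 24 mice, in 8 groups by sex, genotype and treatment, where points are mice (blue for control, orange for succinate) and the bar is the mean of 3. For Ifit1 the orange points lie below the blue ones in each stratum but Ptk6-/- males, where 18.6 to 38.3 under succinate stands against 18.4 to 38.4 in controls.

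Oasl2, the oligoadenylate synthetase-like gene, had the next largest difference. Its log2 fold change over all mice was -0.83 ± 0.22 (edgeR, adjusted p 0.0848, range over the alternatives 0.0119 to 0.396), under the 2-fold limit. Ptk6-/- females had 61.7, 76.9 and 125 CPM as controls and 40.0, 13.6 and 26.2 under succinate. Wild type males had 63.6, 57.9 and 59.4 as controls and 51.6, 25.8 and 30.1 under succinate. In both of these strata the groups did not overlap in CPM, while in FPKM those of the wild type males did (3.46, 7.24 and 7.28 in controls, 7.45, 2.89 and 3.42 under succinate).

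Elsewhere the Oasl2 groups overlapped. Wild type females had 81.5, 53.4 and 63.3 CPM as controls and 30.0, 31.0 and 63.3 under succinate. Ptk6-/- males had 45.6, 96.5 and 85.8 as controls and 38.4, 67.5 and 72.6 under succinate. In each of these a single mouse made the overlap or widened it: succinate mouse 3 in the females and control mouse 1 in the males. The log2 fold change of Oasl2 was -1.75 ± 0.45 in Ptk6-/- females (edgeR, adjusted p 0.332), where DESeq2 called it (-1.74, adjusted p 0.0204) and voom did not (-1.12, adjusted p 0.094), and -0.76 ± 0.28 in wild type males (edgeR, adjusted p 0.947), where it was called without succinate mouse 1 (-1.15, adjusted p 0.0073) but was -0.35 on log2(FPKM + 1) values (limma, adjusted p 0.971).

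Counting the genes whose 3 succinate mice all lay on 1 side of the 3 controls gave a second description by stratum. In wild type males 4 of 9 genes were lower without overlap (Gbp2, Ifit1, Ifit3 and Oasl2) and 0 higher, against 4.15% and 4.62% of all genes. In wild type females 4 of 9 were lower (Gbp2, Ifit1, Irf7 and Isg15) and 0 higher, against 7.32% and 5.95%, with Gbp2 apart by less than 0.1 CPM. In Ptk6-/- females 4 of 9 were lower (Ifit1, Irf7, Oasl2 and Rsad2) and Usp18 higher, against 10.1% and 11.2%. In Ptk6-/- males 0 of 9 were lower and 0 higher, while 12% and 11% of all genes were. Ifit1 was the single gene of the 9 counted in all 3 of the other strata.

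These counts depended on the scaling. In the deposited FPKM, looked at after the CPM values were seen, 0 of 9 were lower without overlap in wild type males (0.391% of all genes) and Usp18 was higher (7.93%), so that the 4 genes named above overlapped there. In wild type females Ifit1, Irf7 and Isg15 were lower (5.53%), without Gbp2. In Ptk6-/- females Ifit1, Irf7 and Oasl2 were lower (4.86%), without Rsad2, and Usp18 and Oas1a higher (17.1%). In CPM without the 3 libraries, the same genes were counted in wild type males, where 2 controls then stood against 3 succinate mice. The share of all genes lower there was 10.4%, against 4.15% with all libraries. The same genes were counted in Ptk6-/- females (10.1% lower and 11.2% higher), which lost no library. Rsad2 was added in wild type females (10.2% lower), where 3 mice then stood against 2.

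The edgeR test made no call among the 9 genes in any of these strata. It called no gene in wild type males (0.0%), Ptk6-/- males (0.0%) and wild type females (0.0%), and 0.0879% of genes in Ptk6-/- females. At an unadjusted p under 0.05 there were 2 of 9 in wild type males (4.07% of all genes), 0 of 9 in Ptk6-/- males (7.75%), 3 of 9 in wild type females (7.77%) and 5 of 9 in Ptk6-/- females (10.7%). DESeq2 called 0, 0, 0 and 2 of the 9 in the same order, and 433 genes of the table in Ptk6-/- females (17 in edgeR).

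**Figure D3:**
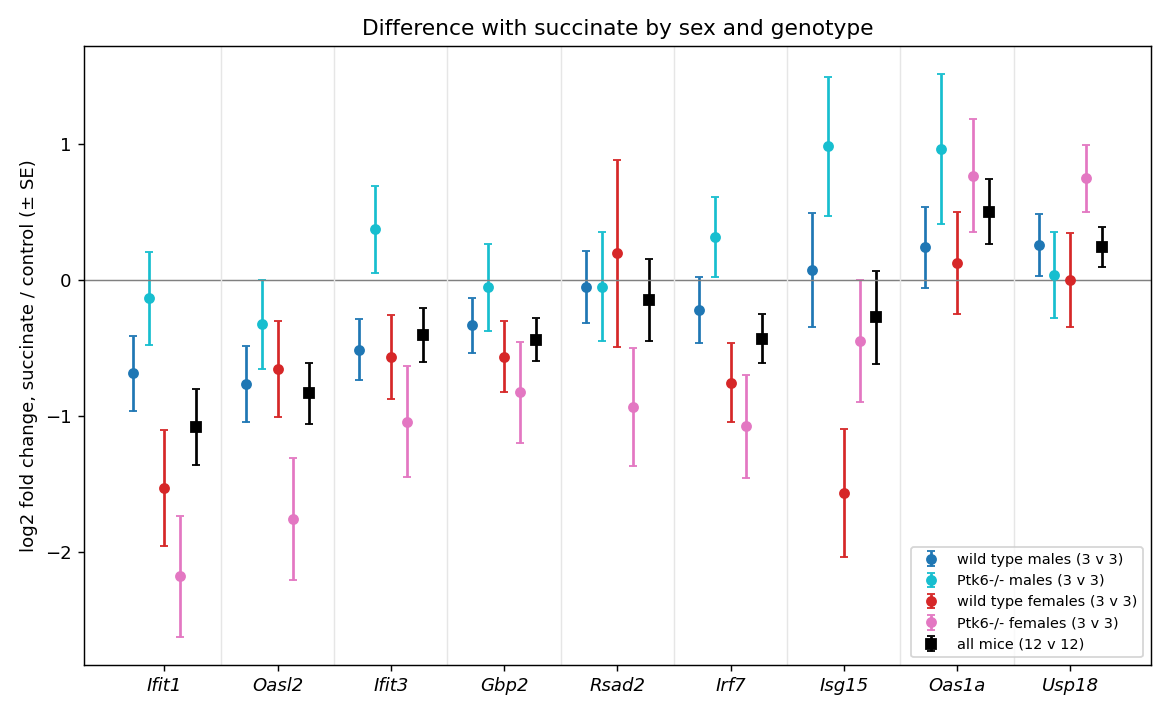
Log2 fold change of succinate against control with its standard error for each gene, in the 4 strata of 3 against 3 mice (circles) and over all mice (black squares, 12 against 12). Ifit1 and Oasl2 lie below 0 in each estimate drawn, and Oas1a lies above 0 in each.

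Irf7, the amplifying transcription factor, had -0.43 ± 0.18 over all mice (edgeR, adjusted p 0.259). Wild type females had 166, 148 and 139 CPM as controls and 91.8, 62.9 and 110 under succinate, and Ptk6-/- females 85.3, 90.8 and 192 as controls and 74.1, 51.6 and 52.8 under succinate. In females of each genotype the groups did not overlap. In males of each genotype they did: wild type controls had 119 to 131 and succinate mice 77.3 to 139, and Ptk6-/- controls had 78.4 to 125 and succinate mice 110 to 165. The log2 fold change was -0.75 ± 0.29 in wild type females (edgeR, adjusted p 0.617; -0.55 without the library labelled succinate mouse 2) and -1.07 ± 0.38 in Ptk6-/- females (0.421; -0.59 without control mouse 3 and -0.50 with voom).

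Isg15, the ubiquitin-like modifier, had its highest value in wild type control females. Wild type control females had 20.6, 41.8 and 14.9 CPM, and wild type females under succinate 10.5, 5.08 and 10.2, with no overlap. The log2 fold change there was -1.56 ± 0.47 (edgeR, adjusted p 0.605; -1.29 without the library labelled succinate mouse 2, and -1.02 without control mouse 2). In Ptk6-/- males the value was of the other sign, 0.98 ± 0.51 (adjusted p 0.60), with 4.95, 13.9 and 12.4 CPM in controls and 31.8, 12.7 and 15.4 under succinate. The highest of these was succinate mouse 1, the smallest library, and without it the value was 0.41, against 0.28 with voom and 0.23 on log2(FPKM + 1). Over all mice Isg15 had -0.27 ± 0.34 (adjusted p 0.736).

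Usp18, the gene of the protease that removes ISG15, had values of the other sign in Ptk6-/- females. In Ptk6-/- females it had 5.62, 4.97 and 5.25 CPM as controls and 9.31, 9.45 and 8.37 under succinate, a higher level in each succinate mouse. The log2 fold change was 0.75 ± 0.25 there (edgeR, adjusted p 0.408) and 0.24 ± 0.15 over all mice (0.429). Oas1a was the other gene with a positive difference over all mice, 0.50 ± 0.24 (adjusted p 0.305), but in CPM its groups overlapped in all 4 strata. In FPKM Oas1a was higher without overlap in Ptk6-/- females (7.39 to 11.5 in controls, 13.5 to 25.2 under succinate). Its highest value, 97.9 CPM, was again in male Ptk6-/- succinate mouse 1, and without the 3 libraries named above the difference was 0.32.

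The Oas1a values of each stratum show the overlap in CPM. Wild type males had 30.5, 33.2 and 35.3 CPM as controls and 22.6, 49.5 and 45.6 under succinate. Ptk6-/- males had 16.4, 37.1 and 35.1 as controls and 97.9, 26.9 and 39.7 under succinate, and their log2 fold change went from 0.96 to 0.15 without succinate mouse 1. In both male strata the succinate mice spread on either side of at least 1 control. Wild type females had 43.3, 60.0 and 41.8 as controls and 79.0, 46.4 and 30.6 under succinate. Ptk6-/- females had 18.3, 17.6 and 35.9 as controls and 34.4, 62.2 and 27.7 under succinate, where control mouse 3 alone made the overlap. Usp18 outside Ptk6-/- females lay between 4.62 and 10.1 CPM in every library, with overlap of the groups in each stratum. In FPKM its wild type male groups did not overlap (0.597 to 1.75 in controls, 1.86 to 2.03 under succinate).

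The remaining 3 genes had differences over all mice that were not called. Gbp2, the GTPase, had -0.44 ± 0.16 (edgeR, adjusted p 0.195; -0.23 with voom). In wild type males it had 36.0, 26.9 and 29.4 CPM as controls and 26.9, 23.6 and 23.7 under succinate, in Ptk6-/- females 28.6, 22.4 and 49.6 as controls and 26.1, 15.2 and 16.6 under succinate. The first pair of groups was apart by a narrow margin and the second overlapped. Ifit3, the partner of Ifit1, had -0.41 ± 0.20 (0.317), and in wild type males its controls were at 10.1, 10.6 and 10.6 CPM against 7.24, 8.82 and 6.12 under succinate. By stratum Ifit3 had -0.51 ± 0.23 in wild type males, -0.56 ± 0.31 in wild type females and -1.04 ± 0.41 in Ptk6-/- females. In Ptk6-/- males it had the other sign (0.37 ± 0.32), and none was called (edgeR, adjusted p 0.449 or more). Rsad2, the viperin gene, had -0.14 ± 0.30 (0.853), and -0.51 without the 3 libraries. Its highest value, 9.39 CPM, was in the library labelled female wild type succinate mouse 2. In Ptk6-/- females Rsad2 had 3.12, 3.84 and 2.60 CPM as controls and 2.45, 0.927 and 1.73 under succinate, without overlap. In wild type females its log2 fold change was 0.20 ± 0.69 with that library and -0.82 without it.

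Marker sums of cell types differed between treatments in some of the same strata. The enterocyte sum did not overlap in wild type females, the stratum with lower Isg15 and Irf7 levels (34603 to 40832 CPM in controls, 23261 to 33582 under succinate), nor, in the other direction, in Ptk6-/- males (12888 to 20511 and 22190 to 48889). It overlapped in Ptk6-/- females (13368 to 45421 and 13919 to 15866) and in wild type males (23103 to 23597 and 12908 to 36791).

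The summed tuft cell markers (8 of 8 genes with counts) were 19.1 to 32.4 CPM in the control libraries, 64.2 to 186 in wild type females and 96.2 to 233 in Ptk6-/- females under succinate, and 38.3 to 51.6 in wild type males and 30.2 to 41.0 in Ptk6-/- males under succinate. Under succinate the tuft sums of females of both genotypes were above those of males.

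The summed markers of T cells and intraepithelial lymphocytes (9 of 9 genes) did not overlap between treatments in wild type females (128 to 272 CPM in controls, 57.3 to 104 under succinate) and, in the other direction, in Ptk6-/- males (100 to 127 and 159 to 253). They overlapped in Ptk6-/- females (85.8 to 220 and 51.2 to 113) and in wild type males (151 to 169 and 118 to 188). The plasmacytoid dendritic cell list (7 of 7 genes, among them Bst2, itself induced by interferon, and Cox6a2, a heart muscle gene) was at 128 to 181 CPM in control and 187 to 435 in succinate Ptk6-/- females, at 159 to 180 and 158 to 520 in wild type females, at 108 to 121 and 134 to 188 in Ptk6-/- males, and at 135 to 155 and 106 to 236 in wild type males. In bulk tissue, fewer cells of a type and less RNA per cell cannot be told apart.

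The second question was what loss of Ptk6 does to these genes without succinate. In control females Isg15 and Oas1a had lower values in Ptk6-/- mice. Neither was called by edgeR or DESeq2, and both were called by voom with sample quality weights (Isg15 -1.54, adjusted p 0.0216, and Oas1a -1.22, adjusted p 0.0148), which called 1972 genes in all there. Oas1a had 43.3, 60.0 and 41.8 CPM in wild type and 18.3, 17.6 and 35.9 in Ptk6-/- females, the single gene of the 9 that was lower without overlap in CPM (10.3% of all genes). Isg15 had 20.6, 41.8 and 14.9 CPM in wild type and 6.68, 5.56 and 15.2 in Ptk6-/- females, where Ptk6-/- mouse 3 lay just above the lowest wild type mouse. In FPKM both genes were lower without overlap (9.7% of all genes), Isg15 with 15.3 to 41.4 in wild type and 6.27 to 13.1 in Ptk6-/- females. The log2 fold change was -0.99 ± 0.33 for Oas1a (edgeR, adjusted p 0.376) and -1.48 ± 0.51 for Isg15 (0.385), in a comparison in which 0.0158% of all genes were called. Without Ptk6-/- control mouse 3, both were called (Oas1a -1.38, adjusted p 0.0275; Isg15 -2.02, adjusted p 0.0315), while without wild type control mouse 2 Isg15 was -0.92 (adjusted p 0.85).

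That mouse stood apart in the enterocyte markers as well. Their sum was 45421 CPM in the highest library of Ptk6-/- control females, the group's median was 15759, and in wild type control females it was 34603 to 40832. The part of this in the Oas1a and Isg15 values was not tested. In control males, where 0.739% of genes were called, the 9 genes lay between -0.29 (Ifit3) and 0.68 (Rsad2), with adjusted p values (edgeR) of 0.223 or more, and none had a group without overlap.

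Under succinate the genotypes were also compared. In males the fitted values were highest for Ifit1 (0.82 ± 0.38) and Oasl2 (0.75 ± 0.38) in Ptk6-/- relative to wild type mice, and none of the 9 was called by edgeR (0.0% of all genes). All 9 fitted values were above 0, but those of Gbp2 (0.01) and Usp18 (0.02) were near 0 and their mean CPM was lower in Ptk6-/- mice (24.4 against 24.7, and 6.83 against 6.93). Without succinate mouse 1 of the Ptk6-/- males, the smallest library, 7 were above 0 and 2 below: Oas1a went from 0.53 to -0.26, Isg15 from 0.66 to 0.09 and Irf7 from 0.29 to -0.00073, while Ifit1 was 0.98 and Oasl2 0.92. voom with sample quality weights called Ifit1 (1.34, adjusted p 0.0236) and Oasl2 (1.22, adjusted p 0.0149), along with 1799 genes in all. On log2(FPKM + 1) values they were 0.18 and 0.14 (limma, adjusted p 0.87 and 0.894), and without Ptk6-/- succinate mouse 2 Ifit1 was 0.54. In females 8 of 9 had a lower estimate in Ptk6-/- mice, and none was called (0.0%). The farthest was Rsad2 at -1.41 ± 0.76, which was -0.41 ± 0.67 without the library labelled wild type succinate mouse 2. In CPM the succinate groups of the 2 genotypes overlapped for each of the 9 genes in each sex, with all libraries included. Without the 3 libraries, which left 3 mice against 2, Ifit1, Oasl2 and Rsad2 were higher without overlap in Ptk6-/- males (13% of all genes), and in Ptk6-/- females Irf7 and Isg15 were lower (7.49%) and Usp18 higher (9.97%).

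Averaged over sex and treatment, genotype differences ran from -0.40 ± 0.34 for Isg15 to 0.25 ± 0.22 for Oasl2 (edgeR, adjusted p 0.617 or more), and 0.0184% of all genes were called. Without the 3 libraries Isg15 was at -0.70 ± 0.30, Oas1a went from -0.26 to -0.47 and Irf7 from -0.18 to -0.36 (edgeR, adjusted p 0.202 or more). Over the alternatives the adjusted p ran from 0.019 to 0.874 for Oas1a, 0.029 to 0.84 for Irf7 and 0.054 to 0.86 for Isg15. None of these genes reached 2-fold in any alternative. Between the sexes, Ifit1 had -0.74 ± 0.28 (adjusted p 0.238) and Rsad2 -0.70 ± 0.31 (0.302; -1.05 and 0.105 without the 3 libraries) in females relative to males (-0.45 and -0.24 on log2(FPKM + 1)), and 0.134% of all genes were called. The sex by genotype interaction in controls called no gene (0.0%), and the value farthest from 0 among the 9 genes was -1.22 ± 0.67 for Isg15 (adjusted p 0.999). At an unadjusted p under 0.05 there were 0 of 9 for genotype in control males (25.2% of all genes), 2 in control females (11.1%), 0 under succinate in males (2.72%) and in females (4.52%), and 0 over all mice (12.8%). There were 2 for sex (14.6%), 1 for the sex by genotype interaction, Rsad2 (4.64%), 1 for the interaction of genotype with succinate in males, Ifit3 (3.8%), and 0 for that in females (6.46%). That value of Ifit3 was 0.89 ± 0.39, and its sign turned on log2(FPKM + 1) values. DESeq2 called 0 of the 9 in each of these comparisons and in the interaction of sex with succinate.

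The next comparison was of the 9 genes with each other across the 24 mice. Of the 36 pairs, 27 had a positive correlation of log2 CPM, and 17 had an adjusted permutation p under 0.05 in Pearson's r, all 17 positive. Adjustment was over the 63 relations computed, these pairs and each gene against 3 marker sums, with 100000 resamples, so that 1e-05 is the smallest p they can give. Since the mice form 8 groups, each r is given with r after subtraction of the group means. The permutations shuffled all 24 mice across these groups, so their p-values also hold differences between groups. The within-group values were not tested. Points share library depth and RNA quality.

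Ifit1 and Oasl2 had the highest Pearson's r over all mice, with r = 0.87, rho = 0.83 (permutation, adjusted p 7.9e-05 and 1.1e-04, n = 24), r = 0.77 without the 2 mice farthest from the median, and r = 0.79 within groups. Ifit1 and Ifit3, neighbours in 1 cluster, had r = 0.83, rho = 0.81 (permutation, adjusted p 7.9e-05 and 1.1e-04, n = 24), 0.69 without the 2 mice and 0.73 within groups. Isg15 and Irf7 had r = 0.82, rho = 0.83 (permutation, adjusted p 7.9e-05 and 1.1e-04, n = 24), 0.83 without the 2 mice and 0.81 within groups. Of these pairs Isg15 and Irf7 had the highest r without the 2 mice and within groups. Without the 3 libraries that stand apart, a comparison added after the values were seen, r was 0.87, 0.86 and 0.78 for these 3 pairs. The order of the pairs changed there, and Ifit3 with Irf7 was highest (0.88). Ifit1 with Rsad2 went from 0.72 to 0.87 (0.86 within groups), and Irf7 with Gbp2 from 0.58 to 0.83.

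Some of the other pairs passed the test, and the following did not. Isg15 and Oasl2 had r = 0.23, rho = 0.26 (permutation, adjusted p 0.344 and 0.301, n = 24), 0.35 without the 2 mice and 0.0032 within groups. Ifit1 and Oas1a had r = -0.30, rho = -0.18 (permutation, adjusted p 0.238 and 0.509, n = 24), -0.28 without the 2 mice and -0.36 within groups. Irf7 and Rsad2 had r = 0.38, rho = 0.36 (permutation, adjusted p 0.117 and 0.155, n = 24), 0.037 without the 2 mice and -0.08 within groups. The last of these was 0.54 without the 3 libraries. By within-group r, chosen after the values were seen, Ifit1, Oasl2, Ifit3 and Gbp2 had 0.56 to 0.79 with one another, and Isg15, Irf7 and Oas1a had 0.57 to 0.81. These were not separate sets, since Ifit3 and Irf7 had 0.60 within groups and 0.83 over all mice.

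**Figure D4:**
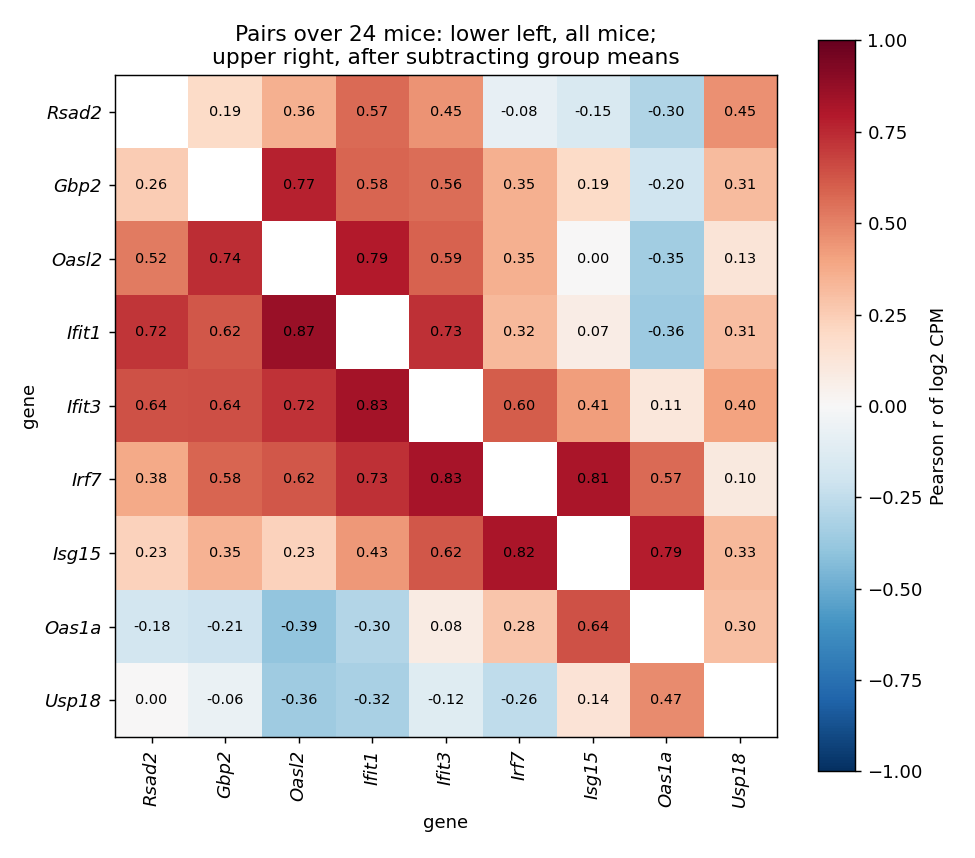
Pearson's r of log2 CPM for each pair of the 9 genes, as a grid of genes by genes with the color giving r from -1 (blue) to 1 (red), over all 24 mice below the diagonal and after subtraction of the 8 group means above it. Ifit1 with Oasl2 (0.87 and 0.79) and Isg15 with Irf7 (0.82 and 0.81) are high on both sides of the diagonal.

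Relations with the sum of enterocyte markers differed in size between the genes, a difference that was not itself tested. Against it Isg15 had r = 0.82, rho = 0.81 (permutation, adjusted p 7.9e-05 and 1.1e-04, n = 24), 0.81 without the 2 farthest mice and 0.80 within groups. Irf7 had r = 0.77, rho = 0.75 (permutation, adjusted p 7.9e-05 and 5.5e-04, n = 24), 0.71 without the 2 mice and 0.82 within groups. Oas1a had r = 0.72, rho = 0.75 (permutation, adjusted p 2.3e-04 and 5.6e-04, n = 24), 0.71 without the 2 mice and 0.83 within groups.

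The relations of Ifit1 and Oasl2 with the enterocyte sum did not pass the test. Ifit1 had r = 0.23, rho = 0.16 (permutation, adjusted p 0.344 and 0.573, n = 24), 0.21 without the 2 mice and -0.15 within groups. Oasl2 had r = 0.14, rho = 0.052 (permutation, adjusted p 0.576 and 0.824, n = 24), 0.063 without the 2 mice and -0.088 within groups.

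Against each of the 3 marker sums 4 of the 9 genes passed in both r and rho: Isg15, Irf7, Oas1a and Ifit3 for enterocytes, Isg15, Irf7, Ifit1 and Ifit3 for T cells, all positive, and Ifit1, Oasl2 and Irf7 (negative) and Usp18 (positive) for tuft cells. The tuft cell sum was negatively related to Ifit1, with r = -0.87, rho = -0.64 (permutation, adjusted p 7.9e-05 and 0.0049, n = 24), -0.83 without the 2 mice and -0.42 within groups. Oasl2 had r = -0.71, rho = -0.55 against it (permutation, adjusted p 7.2e-04 and 0.017, n = 24), -0.67 without the 2 mice and -0.24 within groups. Irf7 had r = -0.70, rho = -0.50 (permutation, adjusted p 0.0012 and 0.034, n = 24), -0.65 without the 2 mice and -0.26 within groups. The tuft sums differ by treatment and sex as given above, and within groups each of these 3 values was nearer 0, with no test of the within-group values.

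The T cell sum was related to Isg15, with r = 0.81, rho = 0.82 (permutation, adjusted p 1.4e-04 and 1.8e-04, n = 24), 0.76 without the 2 mice and 0.76 within groups. Irf7 had r = 0.81, rho = 0.80 against it (permutation, adjusted p 7.9e-05 and 1.1e-04, n = 24), 0.72 without the 2 mice and 0.70 within groups. What part these cell types have in the succinate differences was not tested.

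Over all genes with a mean of at least 1 CPM, those most like the mean standardized level of the 9 genes across the 24 libraries were Gpt, an alanine aminotransferase (r = 0.84), Dnpep, an aminopeptidase (r = 0.83), and Tapbp, the peptide-loading protein tapasin (r = 0.83), given as a description.

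The other genes of the pathway were read from lists of ligands, receptors, signal carriers, sensors, inhibitors and further targets. Of 21 interferon genes, 7 had a count in any library, with at most 14 counts for those other than Ifng, and Ifng, the gene of interferon-gamma, was the single one tested (at most 45 counts). Over all lists without the 9 genes, 135 of 160 genes were tested for succinate over all mice, and 0 were called by edgeR, 5 by DESeq2 (4 lower and 1 higher) and 5 by voom (all lower). Of all genes in the table DESeq2 called 287 there and voom 515, against 114 in edgeR. At an unadjusted p under 0.05 there were 41 lower and 7 higher, against 16.0% of all genes in either direction, and 99 of the 135 had a negative value. Their median log2 fold change was -0.25. At an unadjusted p under 0.05 there were 43 lower and 2 higher of 133 tested in Ptk6-/- females (median -0.61, all genes -0.04). The share of all genes there was 10.7%. DESeq2 called 12 of the 133 there, all lower, among 433 genes called in all, and edgeR called 0. The percentages in this paragraph are shares at an unadjusted p in edgeR, not shares called by DESeq2 or voom. There were 16 lower and 3 higher of 132 in wild type females (7.77% of all genes), where DESeq2 called 3, all lower. The 3 lower and 0 higher of 133 in wild type males (4.07% of all genes) and the 0 lower and 7 higher of 134 in Ptk6-/- males (7.75%) were smaller shares than those of all genes (Ptk6-/- males, median -0.18, all genes -0.10). In wild type males voom called 17 of the 133 lower and 4 higher, among 1498 genes called in all, where edgeR and DESeq2 called 0 of the 133. In the interaction of sex with succinate 21 of 135 were lower and 2 higher in females relative to males, and edgeR called 0 and DESeq2 3, all lower (8.22% of all genes at that p). The counts below are over all mice, at an unadjusted p under 0.05, to be read against 16.0% of all genes, and include the 9 genes where they belong to a list.

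The receptors gave no lower gene at that level (0 of 6, and Ifngr2 higher at 0.29 ± 0.13). Of the signal carriers 4 of 11 were lower and 0 higher. The nucleic acid sensors had 8 of 14 lower and 0 higher, with -0.59 ± 0.20 for Ddx58, which encodes the RNA sensor RIG-I (edgeR, adjusted p 0.169), and -0.58 ± 0.19 for Ifih1, which encodes MDA5 (0.173).

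Among the inhibitors 1 of 7 was lower, near the share of all genes (16.0%), namely Socs3, a feedback inhibitor of JAK kinases, with -0.75 ± 0.25 (edgeR, adjusted p 0.167). The 6 genes of the IFIT family all had negative values. Ifit1bl1, a copy related to Ifit1, had -1.52 ± 0.51 over all mice (edgeR, adjusted p 0.169, range 0.0192 to 0.314). In Ptk6-/- females it went from 129 ± 23.7 CPM (SD, n = 3) in controls to 11.2 ± 7.78 (SD, n = 3) under succinate, with -3.56 ± 0.58 and an adjusted p of 0.14 in edgeR, and DESeq2 and voom called it. In Ptk6-/- males the means lay the other way, 99.9 ± 24.2 (SD, n = 3) and 139 ± 115 (SD, n = 3), with 0.48 ± 0.60 (edgeR, adjusted p 0.781). It had -2.30 ± 0.86 in wild type females (0.617) and -1.03 ± 0.49 in wild type males (0.947, called by voom).

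The OAS family was mixed, with 4 of 13 higher and 2 lower at that level: Oas1c had 0.61 ± 0.24 and Oas3 -0.74 ± 0.31. In the list of guanylate binding proteins and interferon-inducible GTPases all 19 genes tested had negative values, 8 of them at an unadjusted p under 0.05, and Igtp was farthest by p at -0.89 ± 0.26 (edgeR, adjusted p 0.119). Of the ISG15 conjugation genes 1 of 6 was lower, also near the 16.0% of all genes, the ligase gene Herc6 at -0.61 ± 0.23.

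Genes known to respond to interferon-gamma had 6 of 14 lower (16.0% of all genes in either direction), with a median of -0.57. The chemokine gene Cxcl9 had -1.11 ± 0.32 (edgeR, adjusted p 0.116; -0.74 on log2(FPKM + 1)), and Gzmb, the granzyme of cytotoxic lymphocytes, -1.02 ± 0.32 (0.148). Of 45 other interferon-stimulated genes tested, 12 were lower and 3 higher, among them Lgals3bp at -0.77 ± 0.19 (adjusted p 0.059, range 0.0029 to 0.46) and Ifi27l2a at 1.09 ± 0.34 (0.151; 0.70 without the 3 libraries).

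**Figure D5:**
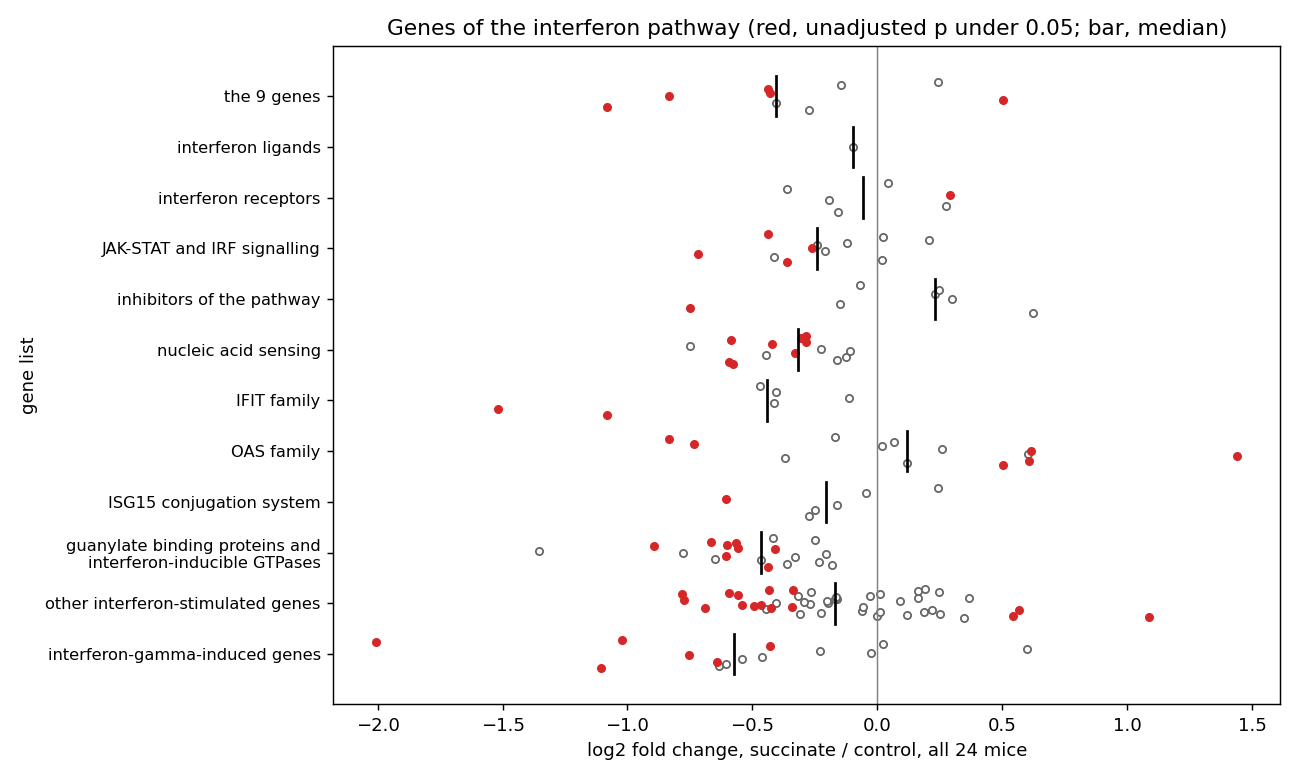
Log2 fold change of succinate against control over all 24 mice for each tested gene of 12 lists of the interferon pathway, 1 list per row, with red points for an unadjusted p under 0.05, open points for the others and a bar at the median. All 19 guanylate binding protein and GTPase genes and all 6 IFIT genes lie below 0, and the OAS genes lie on both sides.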

How the data were processed

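RNA of the distal jejunum of 24 mice was sequenced as stranded poly(A) libraries. The count values deposited by the authors are raw reads per gene. FPKM, also deposited, came from alignment with HISAT2, assembly with StringTie and extraction with ballgown, per the study's methods. The submitters' processing notes name GRCm39. The counting program and its strand setting are not given in the sources used here. The 9 genes and the gene lists were chosen with earlier results of these data known.

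A gene entered a comparison when 3 or more of its libraries held 10 or more counts. The test was edgeR 4.0.16 in R 4.3.3 (TMM scaling, quasi-likelihood test, Benjamini-Hochberg adjustment over all genes tested), with a call at an adjusted p under 0.05 and a fold change of at least 2. Comparisons over all mice had sex, genotype and treatment as terms. Standard errors were the log2 fold change divided by the square root of the F value. The alternatives were DESeq2 1.42.0, limma 3.58.1 with voom and sample quality weights, limma on log2(FPKM + 1) and log2(FPKM + 0.1), other filters and scalings, an offset for gene length, a replicate block, all 24 libraries in 1 fit, and leaving out libraries. Correlations were of log2 CPM with a prior count of 1, with permutation p-values. The fits were tested on simulated data. Mice are the replicates, so p-values of the fitted tests measure the spread between mice. The permutations shuffled all 24 mice without regard to the 8 groups, so their p-values also hold differences between groups. From each list, genes called in a comparison and the 3 with the smallest p for succinate or genotype over all mice could be named. Totals were 8080321 to 52824743 counts. The lowest count of the 9 genes was 15, for Rsad2 in the smallest library. Results for some genes of the lists are not reported here.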

Additional observations from a re-analysis of the deposited data

How the results depend on the processing

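The log2 fold changes of the 9 genes for succinate over all mice kept their sign in each of the 37 alternatives, while calls among the 9 genes, of which the main test made 0 in each comparison, depended on the test. Under DESeq2 there was 1 call for succinate over all mice and there were 2 in Ptk6-/- females. Under voom with sample quality weights there were 2 for genotype in control females, 2 for genotype under succinate in males, 1 for succinate in wild type males, 1 in Ptk6-/- females and 1 over all mice, and with all 24 libraries in 1 fit 1 in Ptk6-/- females. The same settings also called more genes of the table: 287 with DESeq2 and 515 with voom for succinate over all mice (114 in the main test), 433, 200 and 132 (DESeq2, voom, 1 fit) in Ptk6-/- females (17), and with voom 1972 for genotype in control females (3), 1799 for genotype under succinate in males (0) and 1498 for succinate in wild type males (0). Leaving out 1 mouse gave 0 to 2 calls for genotype in control females and 0 to 1 for succinate in wild type males, in wild type females and over all mice. The cause was not tested.

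Signs turned where values lay near 0, and also from values farther off. For genotype over all mice, Ifit1 was -0.022 without the 3 libraries that stand apart (-0.087 to 0.20 without 1 mouse), Rsad2 was 0.36 with voom, 0.025 on log2(FPKM + 1) with or without a filter and 0.11 without the 3 libraries (-0.19 to 0.16), and Usp18 was 0.015 with voom (-0.099 to 0.012). For sex, Oas1a was -0.0647 with the length offset, -0.069 with the replicate block and length offset and -0.038 with voom (-0.019 to 0.24), Oasl2 was 0.0091 and 0.018 on log2(FPKM + 1) and log2(FPKM + 0.1), and Gbp2 was -0.00692 with the replicate block and length offset (-0.031 to 0.17). For succinate, Ifit1 in Ptk6-/- males was 0.034 without the 3 libraries (-0.41 to 0.034 without 1 mouse). Rsad2 in wild type females was -0.27 with the replicate block, -0.30 with block and length offset, -0.60 with voom, -0.17 on log2(FPKM + 0.1) and -0.82 without the 3 libraries (-0.82 to 0.68). The interaction of genotype with succinate in males was -0.38 and -0.49 for Ifit1 and -0.11 and -0.21 for Ifit3 on log2(FPKM + 1) and log2(FPKM + 0.1), the first also without a filter. In the main test it was 0.56 for Ifit1 and 0.89 for Ifit3. Without the 3 libraries Oas1a went from 0.71 to -0.060 in that interaction, and from 0.53 to -0.26 for genotype under succinate in males. The cause was not tested.

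Replicate numbers were shared between groups. In no comparison of 3 against 3 mice did all same-numbered mice have correlated deviations above 0.1 (range -0.32 to 0.21). Deviations from means of 3 mice cannot decide whether the numbers mark mice handled together. With the replicate block, Ifit1 for succinate over all mice was -1.08 (adjusted p 0.103), 0 of the 9 genes were called in each comparison, and 92 genes of the table were called for succinate over all mice. Levels of Rsad2 in the smallest library rest on 15 counts.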
